A study of Homo sapiens with 42 samples.

Results

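Mitochondrial ribosomal protein genes were taken as the protein-coding genes of GENCODE whose symbol begins with MRPL or MRPS followed by a digit, which gave 78 of 20033 genes on 21 chromosomes. Of these, 51 encode proteins of the large subunit and 26 proteins of the small subunit. The remaining gene, MRPS36, keeps its ribosomal name although its product is a subunit of the 2-oxoglutarate dehydrogenase complex. Members that carry other symbols, such as DAP3, fall outside the name rule and were counted as a separate list.

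The study profiled chromatin by ChIP-seq (chromatin immunoprecipitation and sequencing) in 2 human lung cancer cell lines, with 38 ChIP libraries. NCI-H1299 cells stably carried doxycycline-inducible FLAG-DPPA2 and V5-DPPA4 as a sorted population and received 2 µg/mL doxycycline (DOX) or water (control) for 7 days, with 2 libraries per condition for each of H3K27ac, H3K4me1, H3K36me3, H2AK119ub and H3K9me3. NCI-H661 cells, a parental and untreated large cell lung cancer line with its own DPPA2 and DPPA4, were profiled for the same marks, H3K36me2, DPPA2 and DPPA4 with 2 libraries each, and for KDM2A and SUZ12 with 1 each. No NCI-H1299 library had doxycycline without the 2 inducible genes, so an effect of the drug and one of DPPA2/4 cannot be told apart, and the labels do not say whether replicates were separate cultures, so p-values measure only the spread between these libraries.

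The ChIP lists held 12301 to 103384 islands and 0.138 to 3.66 M island reads per library in NCI-H1299 (20 libraries) and 30041 to 127865 islands and 0.488 to 6.96 M reads in NCI-H661 (18 libraries). Sequencing depth beyond the islands is not part of the lists. Of 4 epithelial markers 1 carried promoter H3K27ac in DOX and 1 in control NCI-H1299 cells, against 3 in NCI-H661, of 4 mesenchymal markers 3, 2 and 2, and of 5 blood markers 0, 0 and 1. Of 4 lung markers 0 carried it in either NCI-H1299 condition, and NKX2-1 carried it in NCI-H661.

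The mitochondrial ribosome makes the few membrane proteins of the respiratory chain that mitochondrial DNA encodes. Its RNA comes from the mitochondrion, while all of its proteins are encoded in the nucleus, made in the cytosol and imported. Doxycycline, a tetracycline, binds bacterial ribosomes and also slows translation on mitochondrial ribosomes, so the inducer acts on the complex these genes build. H3K27ac marks active promoters and enhancers, H3K4me1 their flanks, and H3K36me3 the bodies of transcribed genes. H3K9me3 marks heterochromatin, H2AK119ub is laid down by Polycomb repressive complex 1, and SUZ12 is a core subunit of Polycomb repressive complex 2. KDM2A binds unmethylated CpG islands, and DPPA2 and DPPA4 are DNA-binding proteins of the early embryo.

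The promoters were CpG-island promoters with few exceptions. A CpG island, taken as 500 bp in which GC made up 55% or more and CpG reached 0.65 of its expected frequency, lay within 1500 bp of the start in 76 of 78 members, or 97.4%, against 72.9% of all protein-coding promoters. The 2 exceptions were MRPL1 and MRPS10. A protein-coding start on the opposite strand lay within 1000 bp in 27 members (34.6%, against 10.0% of all genes), so a promoter signal there may belong to either gene. Some partners serve the same organelle, such as TWNK, the mitochondrial DNA helicase, beside MRPL43, and NDUFB5, a complex I subunit, beside MRPL47. MRPS11 and MRPL46 are each other's partner, and MRPL49 shares its promoter with FAU, which encodes a protein of the cytosolic ribosome.

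RefSeq promoter sequences (GRCh38.p14, 250 bases before to 50 bases after the start) were matched by symbol for 69 of the 78 members. A set of 4 is printed because they stand towards the ends of the range of CG content described with DPPA2/4 binding below, and they were chosen after their values were seen. Capitals mark CG dinucleotides, of which MRPS34 held 41, MRPL41 51, MRPL37 16 and MRPS22 11. MRPS34 and MRPL41 ranked highest in the family by their lowest percentile of fold over the 4 DPPA2 and DPPA4 lists. MRPL37 and MRPS22 had no narrow peak in any of these lists, although MRPL37 had broader islands in DPPA2 replicate 1 and DPPA4 replicate 3. The 2 sequences with the fewest CG dinucleotides, MRPL48 with 7 and MRPL11 with 8, are not printed. Each of these 2 had narrow peaks in 3 of the 4 lists, so few CG dinucleotides did not always go with no peak.
MRPS34 (chr16:1773085-1773384, minus strand): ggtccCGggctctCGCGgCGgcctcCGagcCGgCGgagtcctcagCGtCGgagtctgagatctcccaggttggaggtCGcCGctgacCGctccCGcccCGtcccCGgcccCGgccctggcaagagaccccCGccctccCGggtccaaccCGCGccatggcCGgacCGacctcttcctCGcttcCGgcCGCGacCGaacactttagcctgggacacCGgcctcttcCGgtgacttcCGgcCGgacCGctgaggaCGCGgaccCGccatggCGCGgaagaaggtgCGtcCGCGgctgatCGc
MRPL41 (chr9:137551629-137551928, plus strand): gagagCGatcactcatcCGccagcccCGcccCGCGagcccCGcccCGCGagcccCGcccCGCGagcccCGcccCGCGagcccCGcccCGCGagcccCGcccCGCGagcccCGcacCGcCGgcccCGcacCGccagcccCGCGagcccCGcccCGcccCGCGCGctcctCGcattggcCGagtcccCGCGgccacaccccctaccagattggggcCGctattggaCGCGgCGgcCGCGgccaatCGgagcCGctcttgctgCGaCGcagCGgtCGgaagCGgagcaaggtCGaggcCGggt
MRPL37 (chr1:54199917-54200216, plus strand): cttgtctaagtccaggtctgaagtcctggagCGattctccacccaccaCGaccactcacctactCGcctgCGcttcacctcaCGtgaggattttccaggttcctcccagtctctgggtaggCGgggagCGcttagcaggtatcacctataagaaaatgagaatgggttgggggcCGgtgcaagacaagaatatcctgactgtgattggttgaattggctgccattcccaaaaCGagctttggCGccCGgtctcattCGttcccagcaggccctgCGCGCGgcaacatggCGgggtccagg
MRPS22 (chr3:139343770-139344069, plus strand): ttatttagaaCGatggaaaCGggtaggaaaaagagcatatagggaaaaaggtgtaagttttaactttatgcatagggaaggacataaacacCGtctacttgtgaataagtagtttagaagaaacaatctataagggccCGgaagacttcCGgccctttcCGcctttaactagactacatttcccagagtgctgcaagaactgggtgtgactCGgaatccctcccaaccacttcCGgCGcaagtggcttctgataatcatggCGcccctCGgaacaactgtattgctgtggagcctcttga

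The letters of transcription factor motifs were searched on both strands of these 300 bases. AAGATGGC, the core of the YY1 motif, was present in 21 of 69 members (30.4%) and in 4.15% of the 15345 promoters of the table. CCGGAAG, the core of ETS family motifs, was present in 30 members (43.5%, against 14.8% of all), and the longer CCGGAAGT, which contains it, in 12 (17.4%, against 6.43%). Both cores were thus more frequent in the family than in the table. For NRF1, a regulator of nuclear genes for mitochondria, the full palindromic core occurred in 1 member, MRPL17 (1.45%, against 1.77% of all), and a looser form with its middle bases free in 10 (14.5%, against 12.6%). TATAAA occurred in 3 members (4.35%, against 9.42%) and CCAAT in 20 (29.0%, against 36.6%). In the cytosolic ribosomal protein genes, the closest other family, AAGATGGC was found in 7 of 67 promoters (10.4%) and CCGGAAG in 22 (32.8%).

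The YY1 letters mostly lay just after the start. Of the 22 matches in members, 16 lay downstream of the start, between positions +7 and +36, all of them on the gene's own strand. Such a downstream match was found in 23.2% of member promoters and in 2.74% of all promoters of the table. In 13 of the 16 the ATG inside the letters was the annotated start codon of the canonical transcript, so these letters are part of the coding sequence as well as of the promoter window. Windows around 8 downstream matches and 1 upstream match are printed to show this, with the searched letters in capitals and position 1 at the transcription start.
MRPL38 (position 7, chr17:75904861-75904888, minus strand): ggccggagggAAGATGGCggcgccctgg
MRPL46 (position 9, chr15:88467363-88467390, minus strand): gggagaacgaAAGATGGCggcgcccgta
MRPS18A (position 10, chr6:43687765-43687792, minus strand): taggtttttgAAGATGGCggccctcaag
MRPL45 (position 14, chr17:38297171-38297198, plus strand): ttgcgggaacAAGATGGCagcccccata
MRPS30 (position 14, chr5:44808950-44808977, plus strand): atcgcgggcaAAGATGGCggcggccagg
MRPS7 (position 20, chr17:75261888-75261915, plus strand): gtggccagccAAGATGGCtgcccccgca
MRPL50 (position 24, chr9:101398578-101398605, minus strand): gatctcatcgAAGATGGCggcgcgatct
MRPS18B (position 24, chr6:30617853-30617880, plus strand): ggcgtacgtcAAGATGGCggcgtctgta
MRPL52 (position -64, chr14:22829813-22829840, plus strand): acccagattcAAGATGGCgacttcctgc
In the 8 downstream windows the ATG is the start codon, and in MRPL52 it lies upstream of transcription and is not. A match of letters does not show that a factor binds there.

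The first comparison set the chromatin of the family in NCI-H661 beside that of all promoters. A histone mark was called where both replicates had an island (a broad enriched region called by EPIC2) within 1500 bp of the start. H3K27ac was called at 77 of 78 members (98.7%), and 58.1% of all promoters carried it. H3K36me3 islands reached the promoter window of 19 members (24.4%, against 7.17% of all promoters) and H3K4me1 islands that of 29 (37.2%, against 29.6%). H2AK119ub was called at 5 members (6.41%, against 24.3%). H3K9me3 was called at 0 members (4.14% of all), H3K36me2 at 0 (5.49% of all) and SUZ12 narrow peaks at 0 (15.6% of all). The cytosolic ribosomal protein genes were similar for most marks, with H3K27ac at 83 of 85 promoters, H2AK119ub at 5 and H3K9me3, H3K36me2 and SUZ12 at 0. H3K36me3 was more frequent in that family, at 33 of 85 promoters (38.8%).

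**Figure D1:**
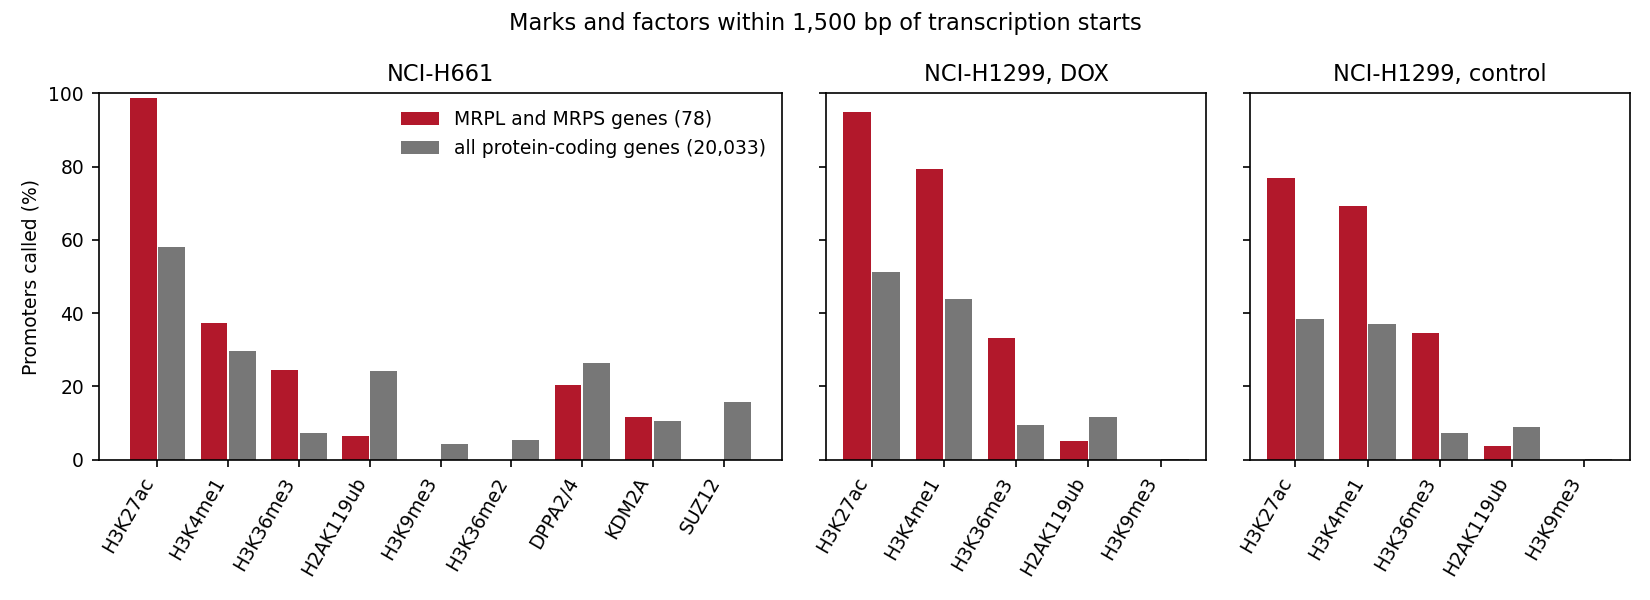
Percentage of promoters called within 1500 bp of the start for each mark or factor (y axis) in NCI-H661, NCI-H1299 with DOX and NCI-H1299 control, for the 78 members (red bars) and all 20033 protein-coding genes (grey bars). Member bars stand above the grey bars for H3K27ac, H3K4me1 and H3K36me3 and below them for H2AK119ub in all 3 panels, and SUZ12 has no member bar.

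The single replicates varied more for the weaker marks. H3K27ac was found at 77 members in each NCI-H661 library, against 58.9% and 68.1% of all promoters in replicates 1 and 2. The counts also moved with the rule. Within 500 bp of the start H3K4me1 was called at 2 members (2.56%, against 9.62% of all promoters) and H3K36me3 at 0 (0%, against 1.27%). The family thus lay above all promoters for these 2 marks in the 1500 bp window but not within 500 bp. At a log2 fold above 2, H2AK119ub was called at 1 member (1.28%, against 12.8%). H3K36me3 was found at 43 members in replicate 1 and 22 in replicate 2, H3K4me1 at 50 and 34, H2AK119ub at 6 and 11, H3K36me2 at 2 and 9, and H3K9me3 at 3 and 0. The shares of all promoters moved in the same direction between replicates. In replicates 1 and 2 they were 19.8% and 8.75% for H3K36me3, 43.2% and 39.7% for H3K4me1 and 27.1% and 41.3% for H2AK119ub. For H3K36me2 they were 9.80% and 20.3%, and for H3K9me3 9.21% and 6.19%. The 3 members with an H3K9me3 island in replicate 1 were MRPS12, MRPL19 and MRPL35. Member H3K27ac islands had a median width of 1600 bp in both replicates, against 1800 bp over all marked promoters, and a median fold over input of 7.52 and 9.21, against 8.25 and 9.97. Their H3K27ac was thus as frequent as in the cytosolic family but not broader or stronger than at other marked promoters, where cytosolic members had median widths of 2200 and 2500 bp.

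MRPL23, which encodes a protein at the exit tunnel of the large subunit, was the one member without a called H3K27ac island in NCI-H661. It had no H3K27ac island in any of the 6 H3K27ac libraries of either cell line. Over the whole gene, 0 of the 32 histone lists held an island, and the nearest histone islands began 2.53 kb before and 41.3 kb after the start. Narrow peaks of DPPA2 and DPPA4 were present there in all 4 lists, where the DPPA2 folds were 7.24 and 8.46 and the DPPA4 folds 8.77 and 6.23. The narrow peaks came from MACS2 and the histone islands from EPIC2. With EPIC2 none of the 4 DPPA2 and DPPA4 lists had a kept island at the MRPL23 promoter, and 1 of all 38 EPIC2 lists, a DPPA4 list, held an island over the gene. The island lists thus cannot tell a histone mark that is absent at MRPL23 from one that EPIC2 did not call there.

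The 5 members with H2AK119ub in NCI-H661 were MRPL12, MRPL14, MRPL28, MRPL36 and MRPS34. MRPL12 forms the stalk that recruits translation factors, and MRPL14 sits at the interface between the subunits. All 5 carried H3K27ac at the same promoter, as did 77 of the 78 members, and all 5 were bound by DPPA2/4. Over all genes 2144 of the 4863 promoters with H2AK119ub were bound. MRPS34, a small subunit protein found only in mitochondria, had H2AK119ub islands of 68 and 844 reads over 2600 and 14500 bp in replicates 1 and 2, the most of the 5 in replicate 2. MRPL36 had 36 and 439 reads and MRPL12 had 75 and 120 reads, the most of the 5 in replicate 1.

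KDM2A narrow peaks were called at 9 members, or 11.5%, against 10.5% of all promoters. They were MRPL12, MRPL14, MRPL21, MRPL33, MRPL40, MRPL57, MRPS2, MRPS30 and MRPS34. The fold ran from 4.15 at MRPS30, which despite its name belongs to the large subunit, to 7.18 at MRPL12. Of these 9, 6 were also bound by DPPA2/4, and over all genes 1488 of the 2111 promoters with a KDM2A peak were bound. The count rests on the peak caller, since the broad EPIC2 islands of the same KDM2A library touched 56 members and 50.5% of all promoters.

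DPPA2 and DPPA4 shared a consensus peak (present in both lists of each factor, where an overlap had to exceed 25% of both peaks) at 16 member promoters, or 20.5%. Over all promoters the share was 26.3%, and over CpG-island promoters with H3K27ac, the class to which 75 of the members belong, it was 40.7%. Of those 75 members 15 were bound. The share of the family lay below both figures, a difference that was not tested. Where 50% of each peak had to overlap, 10 members were bound (12.8%, against 11.9% of all promoters), so the family no longer lay below all promoters, and broad islands in place of narrow peaks gave 35 (44.9%, against 46.9%). The cytosolic family was bound at 16 of 85 promoters. DPPA2 alone was found in both of its lists at 23 members (29.5%, against 36.5% of all) and DPPA4 at 17 (21.8%, against 31.2%).

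Binding was graded over the family. No list had a peak at 24 members, 1 list at 18, 2 lists at 8, 3 lists at 10 and all 4 lists at 18. MRPS16 and MRPL53 had peaks in all 4 lists that did not overlap enough to form a consensus. The 10 members that ranked highest by their lowest percentile of fold over the 4 lists were MRPS34, MRPL41, MRPL14, MRPL23, MRPL12, MRPS26, MRPS6, MRPL38, MRPL28 and MRPL57. MRPS34 led, with DPPA2 folds over background of 21.1 and 9.28 and DPPA4 folds of 15.0 and 8.85, and its lowest percentile was 94.0. Its consensus region was 7174 bp wide, the widest of the 16, which ran from 256 bp at MRPL28 with a median of 928.5 bp.

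MRPL41, a large subunit protein found only in mitochondria, had DPPA2 folds of 8.40 and 7.47 and DPPA4 folds of 13.4 and 7.78. MRPS26 had DPPA2 folds of 15.6 and 11.2 and DPPA4 folds of 9.62 and 5.82. At the low end, MRPS12, a protein of the decoding centre whose bacterial homologue is a site of streptomycin resistance, had DPPA2 folds of 3.73 and 3.46 and DPPA4 folds of 3.44 and 2.75. Its lowest percentile was 0.96, so the weakest consensus peak of the family was also among the weakest peaks of its list. Replicate 1 of DPPA2 gave the highest fold at most of the 16 promoters.

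**Figure D2:**
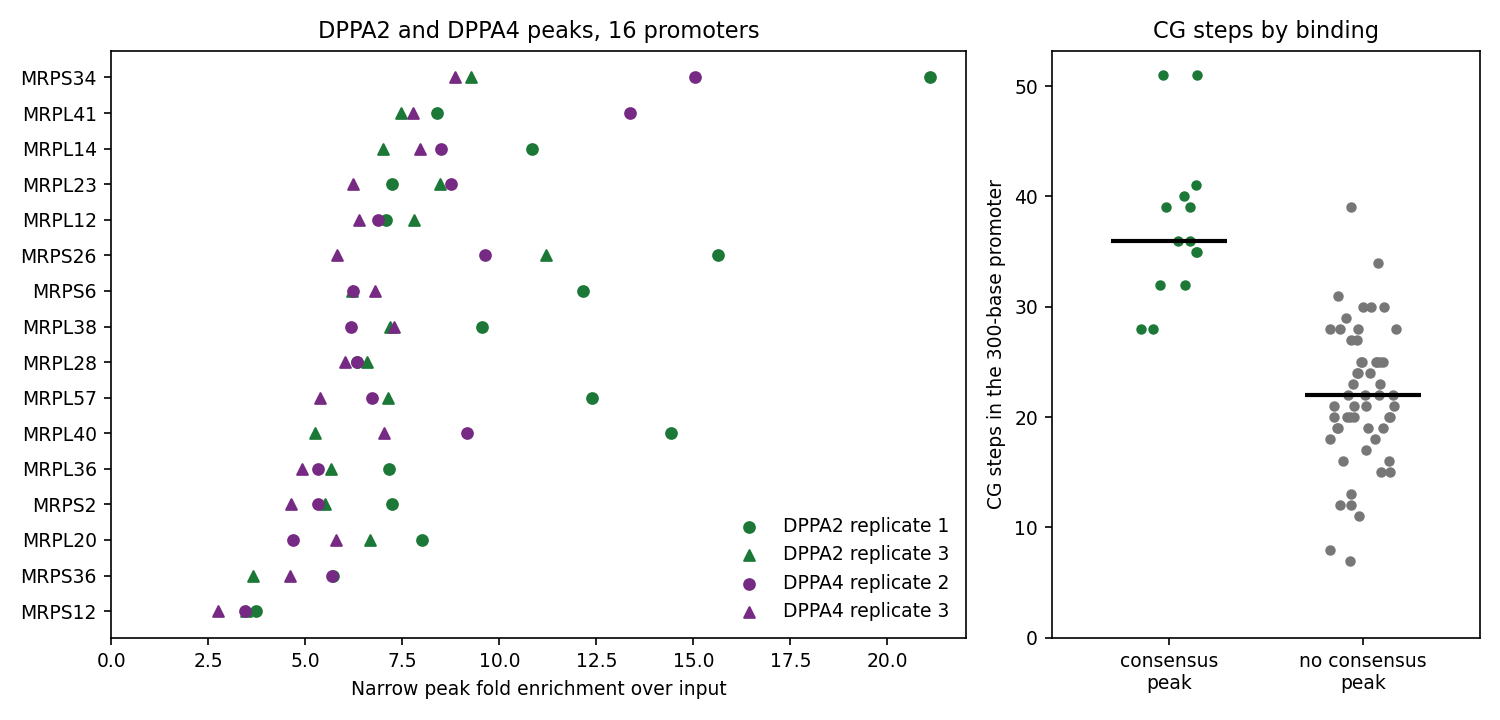
Left, fold enrichment of the narrow peak over input (x axis) at the 16 promoters with a DPPA2/4 consensus peak, for 2 DPPA2 (green) and 2 DPPA4 (purple) lists, ordered by the lowest percentile of the 4. Right, CG dinucleotides in the 300-base RefSeq promoter (y axis) for 14 members with and 55 without a consensus peak, with bars at the medians of 36 and 22.

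Peak summits lay near the start. Of the 64 summits at the 16 promoters 41 were within 500 bp of the start, and the median distance regardless of side was 325.5 bp. The summits of MRPL41 lay 110 to 209 bp downstream in the 4 lists, and those of MRPL14 at positions -531 to -659, towards TMEM63B, its neighbour on the other strand. At MRPS34 the summit was 331 bp downstream in 1 list and 1877 to 2131 bp downstream, beyond the end of this short gene, in the other 3. The binding at MRPS34 is thus not centred on its own start.

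Bound promoters were richer in CG. The RefSeq promoters of bound members held a median of 36 CG dinucleotides (range 28 to 51, n = 14), those of unbound members 22 (7 to 39, n = 55) and the table's promoters as a whole 23. Over the 3 kb promoter window the median GC content was 61.9% in the 16 bound and 48.0% in the 62 unbound members. The motif letters showed no such split, with AAGATGGC in 4 of 14 bound and 17 of 55 unbound promoters and CCGGAAG in 7 and 23.

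Bound members also carried more of the weaker marks. H3K36me3 reached the promoter window of 8 of 16 bound members, against 11 of 62 unbound members, and H3K4me1 of 9, against 20. H2AK119ub was called at 5 bound members and at 0 of the 62 unbound members, and KDM2A at 6 and 3. Over all genes bound promoters carried H3K36me3 in 10.96% of cases, against 5.82% for unbound promoters, and H3K4me1 in 49.6%, against 22.4%. They carried H2AK119ub in 40.7% of cases, against 18.4% for unbound promoters, and KDM2A in 28.2%, against 4.22%. The direction was the same in the family and in all genes for these 4 marks and factors, and GC content, given above, differed between the same 2 sets, so their parts cannot be told apart. All 4 classes of ribosomal protein contained bound members. These were 6 of 30 large subunit proteins with bacterial homologues, 4 of 21 large subunit proteins found only in mitochondria, 3 of 16 small subunit proteins with bacterial homologues and 2 of 10 small subunit proteins found only in mitochondria.

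H3K36me3 was then read over gene bodies, as the percentage of each body under islands. Member bodies had a median length of 11.02 kb, against 24.8 kb over all genes. In NCI-H661 the median member had 60.4% of its body covered in replicate 1 and 29.5% in replicate 2, against 5.01% and 0% over all genes and 37.7% and 11.1% over genes with H3K27ac at their promoter. Cytosolic members had 76.8% and 28.4%. The 2 libraries differed in total covered length, 187 Mb in replicate 1 and 80.0 Mb in replicate 2. In both replicates the median of the family exceeded that of genes with an active promoter. Coverage in NCI-H661 and body length correlated (rho) at -0.27 over members and 0.07 over all genes. Among genes covered in at least 1 NCI-H1299 library the values were -0.41 for members and -0.38 for all. The part of the shorter bodies in the higher median was not tested.

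The 5 members with the highest mean coverage in NCI-H661 were MRPS12, MRPL38, MRPL2, MRPS15 and MRPS18A. MRPS12 had 97.4% and 74.97% of its body covered in replicates 1 and 2. MRPL2, a protein next to the catalytic centre, had 83.2% and 81.4%. Coverage was 0 in both replicates for MRPL23, MRPL57, MRPS34, MRPL34, MRPL53 and MRPL41, which apart from MRPL23 are short, with bodies of 0.677 kb (MRPL41) to 2.43 kb (MRPL57). For MRPL23 the limit given above applies, since no histone list held an island over that gene. Replicates disagreed strongly for some genes, as for MRPS30 with 96.9% and 0%. H3K36me2 covered 0% of the body in 73 and 71 of the 78 members in its 2 libraries, and of all genes 76.1% and 59.8% were at 0. H3K9me3 covered 0% in 72 and 77 members, against 63.1% and 76.6% of all genes. MRPS12 was the one member with H3K9me3 over more than 50% of its body, at 62.9% in replicate 1, and it had 0% in replicate 2.

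**Figure D3:**
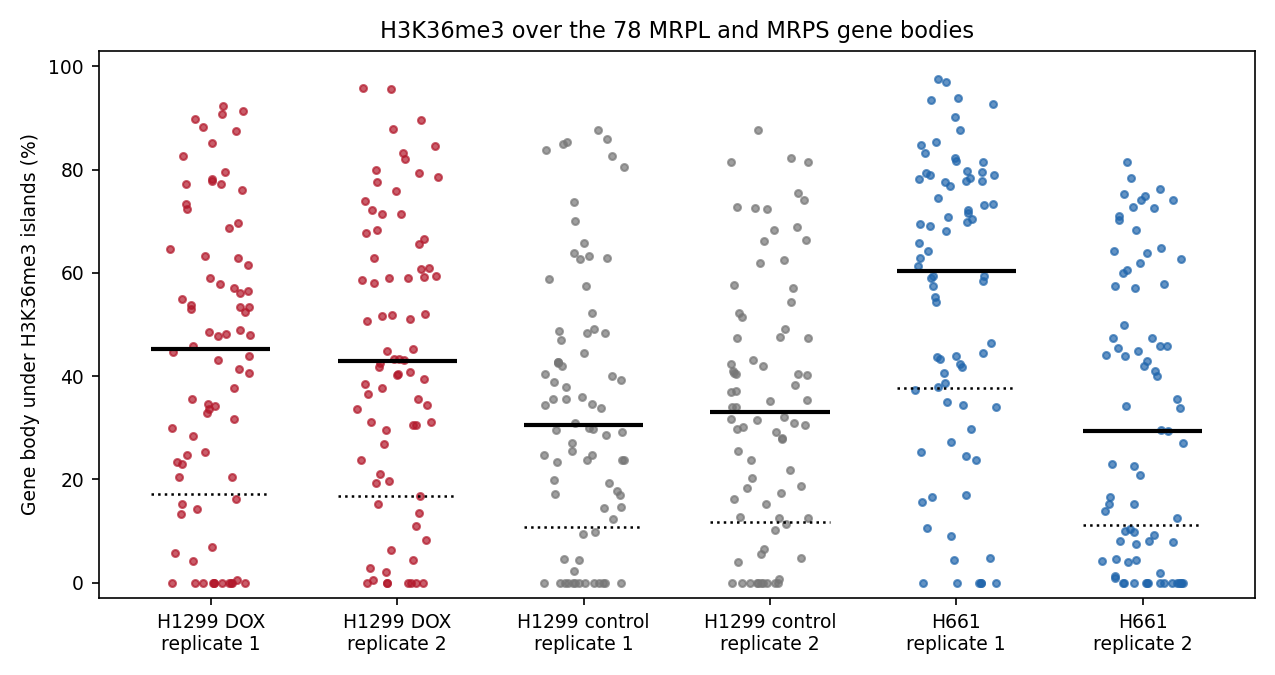
Percentage of the gene body under H3K36me3 islands (y axis) for each of the 78 members (points) in the 2 DOX, 2 control and 2 NCI-H661 libraries. Solid bars are member medians (45.2, 42.9, 30.4, 33.002, 60.4 and 29.5%) and dotted bars the medians of the 11632 genes with H3K27ac at their promoter in NCI-H661, which lie below the solid bars in every library.

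In NCI-H1299 the median member had 45.2% and 42.9% of its body under H3K36me3 in the 2 DOX libraries, against 30.4% and 33.002% in the 2 control libraries. The median over all genes was 0.26% and 0.27% in DOX and 0% in both control libraries. Both DOX values lay above both control values in 41 of 78 members (52.6%) and in 25.3% of all genes, and below both in 3 (3.85%) and in 2.11%. Among genes covered in at least 1 of the 4 libraries, DOX lay above control in 41 of 74 members (55.4%), against 45.7% of such genes. DOX islands covered 129 and 126 Mb of the genome and control islands 98.6 and 102 Mb, so more length was called in DOX over the whole genome and not only over these genes. Its part in the wider coverage of members was not tested. In the cytosolic family DOX lay above control in 24 of 85 genes.

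MRPL18, the homologue of bacterial L18, had 90.8% and 89.5% coverage in DOX, against 65.7% and 68.2% in control. MRPS15 had 56.5% and 61.0% in DOX, against 31.0% and 31.0% in control. For MRPL2 the values were 62.9% and 62.9% in DOX, against 29.6% and 40.7% in control. The DOX and control libraries did not overlap for these 3 genes. MRPS18B, one of 3 human paralogues of bacterial S18, was the most covered member in both conditions, with 92.3% and 95.8% in DOX, against 87.6% and 87.6% in control. MRPL27, MRPL15, MRPS22 and MRPL44 followed in control, and MRPL51, MRPL18, MRPL15 and MRPS22 in DOX.

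The 3 members with less coverage in DOX were MRPL16, MRPS26 and MRPL27. MRPL16 had 14.2% and 4.31% of its body covered in DOX, against 48.7% and 43.1% in control. MRPS26 had 20.5% and 29.6% in DOX, against 52.3% and 34.1% in control. MRPL27 had 53.4% and 72.1% in DOX, against 85.3% and 81.5% in control. The 2 DOX libraries of MRPL27 lay further apart than its 2 control libraries. Both cell lines covered at least 50% of the body, as a mean over control libraries and over NCI-H661 libraries, in 11 members (14.1%), against 4.93% of all genes and 36 of 85 cytosolic members.

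H3K27ac at promoters was called in both DOX libraries at 74 of 78 members (94.9%, against 51.3% of all promoters) and in both control libraries at 60 (76.9%, against 38.3%). By library the counts were 76 and 74 members in DOX, against 63 and 70 in control. Over all promoters they were 59.4% and 52.1% in DOX, against 42.8% and 45.8% in control. Kept H3K27ac islands held 2.78 and 0.979 M reads over 63.6 and 29.5 Mb in DOX, against 0.775 and 0.760 M reads over 24.4 and 22.97 Mb in control. DOX replicate 1 held the most island reads of the 4 libraries. Each condition had 1 input, and 17.9% and 22.4% of kept H3K27ac islands had no input read in DOX, against 36.1% and 33.1% in control. The part of these differences in the counts was not tested.

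Members without H3K27ac in both DOX libraries were MRPL10, MRPL17, MRPL23 and MRPS26. In control the 18 without it were MRPL16, MRPL17, MRPL19, MRPL2, MRPL23, MRPL27, MRPL36, MRPL40, MRPS2, MRPS21, MRPS25, MRPS26, MRPS31, MRPS34, MRPS35, MRPS36, MRPS5 and MRPS6. Most of the 18 had an island in 1 of the 2 control libraries. An island in both DOX and neither control library was found at 3 members, MRPS21, MRPS36 and MRPS5, which is 3.85% of the family, and 5.03% of all promoters were gained in this way. The reverse was found at 1 member, MRPL10, and at 0.0799% of all promoters. With 2 libraries against 2 the smallest exact permutation p is 0.333, so these counts carry no test. Without control replicate 2 the gained members numbered 12 (15.4%, against 11.3% of all promoters), without control replicate 1 they numbered 6 (7.69%, against 8.13%), and with a stricter island fold (log2 above 2) they numbered 12 (15.4%, against 11.6%).

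The islands of the 3 gained promoters were of ordinary size. MRPS21 had 134 and 40 reads in its DOX islands, MRPS36 94 and 24, and MRPS5, a protein at the mRNA channel of the small subunit, 111 and 45. None of the 3 had an island in a control library, where the list gives no read count. MRPL10, the base of the stalk, had 61 and 27 reads in its control islands and no island in DOX.

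For the other marks 0 to 4 member promoters were gained or lost. H3K4me1 was called at 62 members in DOX (43.9% of all promoters), against 54 in control (37.1%), with 2 gained (MRPL36 and MRPS25, against 3.23% of all) and 0 lost (1.12%). H3K36me3 in the promoter window was called at 26 members in DOX (9.52% of all), against 27 in control (7.37%). It was gained at 4 (MRPL19, MRPL2, MRPL43 and MRPS17, 5.13%, against 1.95% of all) and lost at 4 (MRPL22, MRPS11, MRPS26 and MRPS35, 5.13%, against 0.729%). Both H3K36me3 shares of the family lay above those of all promoters, which was not tested. Within 500 bp of the start 0 members gained it (0.354% of all) and 0 lost it (0.0749%). H2AK119ub was called at 4 members in DOX (MRPL12, MRPL14, MRPS2 and MRPS34, against 11.6%) and at 3 in control (MRPL12, MRPL14 and MRPS26, against 8.8%), with 0 gained (3.04%) and 0 lost (2.09%). H3K9me3 was called at 0 members in DOX (0.165% of all) and 0 in control (0.19%), with 0 gained (0.0349%) and 0 lost (0.0948%). MRPL12 and MRPL14 carried H2AK119ub in both cell lines and in both NCI-H1299 conditions.

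Read counts were then compared. Islands from all 4 libraries were merged into joint regions for each mark, the authors' reads were summed per region, and regions with islands over at least 50% of their length in every library were fitted with edgeR's quasi-likelihood test. A region was called where the Benjamini-Hochberg adjusted p fell under 0.05 and the log2 change reached 0.5 in either direction. For H3K27ac 3436 regions were tested and 0 were called, and 188 had an unadjusted p below 0.05. Over all regions 29 were called without DOX replicate 2, 12 of 10307 with no coverage minimum and 8 with total island reads as library size, and none of these was a member. The other 55 members had no region that could be tested. At the 23 members tested 0 regions were called (0% of all regions), 0 had an unadjusted p below 0.05, and DESeq2 also called 0. Their median log2 change was -0.09, against -0.01 over all regions, and the lowest adjusted p was 0.954. Scaling moved the median of all regions, to 0.44 with library sizes taken from the deposited folds, to -0.41 with total island reads and to -0.26 with reads per covered length, so only changes relative to all regions are comparable. The member median relative to all regions was -0.08, and without DOX replicate 2 it was 0.06.

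The 5 lowest log2 changes of H3K27ac were those of MRPS18C, MRPL9, MRPL24, MRPL45 and MRPS14, and the 5 highest those of MRPL14, MRPS24, MRPL51, MRPS28 and MRPL32. MRPS18C, another S18 paralogue, had 191 and 208 CPM (reads scaled to the TMM library size) in DOX, against 266 and 263 CPM in control, a log2 change of -0.41 ± 0.23 (SE). MRPL9 had 199 and 177 CPM in DOX, against 240 and 250 CPM in control, a log2 change of -0.37 ± 0.23. The libraries of the 2 conditions did not overlap for either gene, and neither passed the test, with adjusted p of 0.954 and 0.996 by edgeR. Both were named as extreme log2 changes, which favours such a separation, and the share of all regions that separated is not given here. At the other end MRPL14 had 305 and 229 CPM in DOX, against 240 and 229 CPM in control, a log2 change of 0.19 ± 0.23. Standard errors over the 23 members ran from 0.18 at MRPS18B to 0.37 at MRPL45, which sets how small a change could be seen at each.

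**Figure D4:**
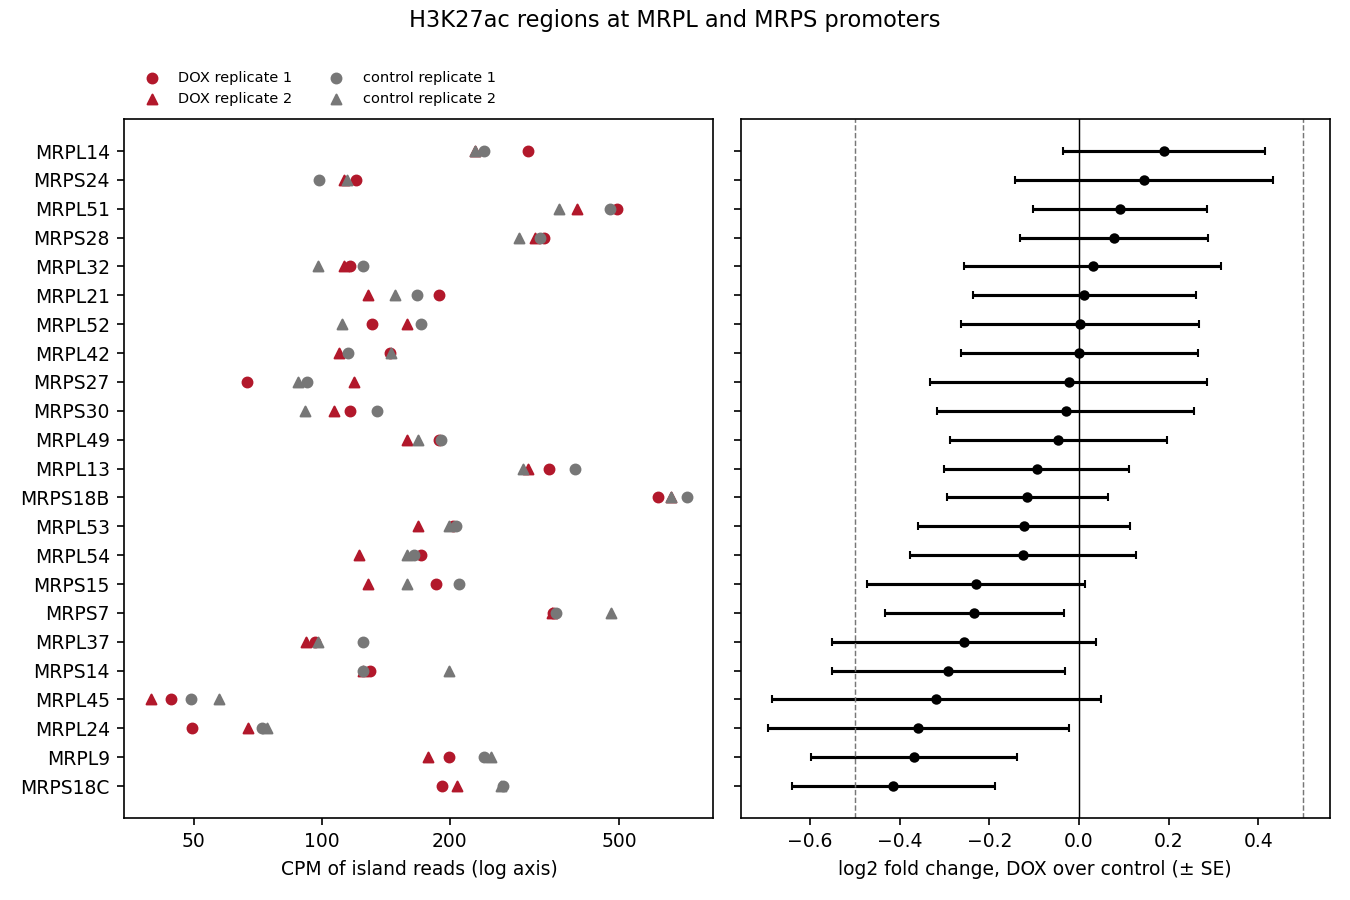
H3K27ac at the 23 member promoters with a tested region. Left, CPM of island reads per library on a log axis for DOX (red) and control (grey) replicates. Right, log2 fold change of DOX over control with its SE, with dashed lines at the call limit of 0.5 in either direction, which no point passes.

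Counting reads in fixed promoter windows, which needed only an island in every library, brought 59 members among 7379 genes, and again 0 members and 0 genes (0%) were called by edgeR, with an unadjusted p below 0.05 at 1 member and 396 genes. The largest change of a member was that of MRPL41, which had 118 and 49 window reads in DOX, against 8 and 20 in control, a log2 change of 1.71 ± 0.53 with an unadjusted p of 0.0127 and an adjusted p of 0.862 by edgeR. Its islands covered 2722 and 1800 bp of the window in DOX, against 200 and 600 bp in control. Per covered base its log2 change was -0.82, where members ran from -1.17 at MRPL39 to 0.04 at MRPS30 and most were below 0. The sign for MRPL41 thus turned when covered length was counted, but a value below 0 was not particular to it.

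For H3K36me3 7146 regions were tested and 15 were called (0.21%), 12 higher and 3 lower in DOX. Leaving out DOX replicate 1 gave 0 calls, as did leaving out DOX replicate 2. Each of 35 members was read by 1 tested region over its body, which could cover part of the body or run past the gene. It was 900 bp wide for MRPL48 (body 77.3 kb) and 34000 bp wide for MRPS22 (body 16.5 kb). Of these 35 regions 0 were called, and DESeq2 called 0 regions anywhere. The 43 other members had no region that could be tested. The median log2 change of members was 0.03, against -0.01 over all regions, with 20 members above 0 and 15 below. An unadjusted p below 0.05 was found at 5 members, MRPL35, MRPL33, MRPS30, MRPS21 and MRPS26, and at 513 of all regions (7.18%). The lowest adjusted p of a member was 0.354, at MRPS30.

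MRPL35 had 100 and 94.4 CPM in DOX, against 57.2 and 69.7 CPM in control, a log2 change of 0.62 ± 0.23 with an adjusted p of 0.390 by edgeR. MRPL33 had 117 and 95.5 CPM in DOX, against 70.4 and 75.6 CPM in control, a log2 change of 0.54 ± 0.23 in a region of 8000 bp within a body of 216 kb. MRPS30 had 176 and 184 CPM in DOX, against 133 and 120 CPM in control, a log2 change of 0.51 ± 0.18. In these 3 genes both DOX libraries were above both control libraries. They were named as the highest log2 changes, which favours such a separation, and the share of all regions that separated is not given here. MRPL13 and MRPL18 completed the 5 highest, at 0.36 ± 0.21 and 0.21 ± 0.23. With reads counted over the whole body, as described below, the log2 changes of these 5 genes were lower. They were 0.24 ± 0.36 for MRPL35, 0.06 ± 0.24 for MRPL33, 0.31 ± 0.27 for MRPS30, -0.18 ± 0.13 for MRPL13 and 0.13 ± 0.29 for MRPL18.

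MRPS26 had 24.0 and 16.0 CPM in DOX, against 33.9 and 27.6 CPM in control, a log2 change of -0.63 ± 0.29 with an adjusted p of 0.617 by edgeR. MRPS21 had 120 and 175 CPM in DOX, against 195 and 193 CPM in control, a log2 change of -0.42 ± 0.17. Both DOX libraries were below both control libraries for these 2 genes, which were named as the lowest log2 changes, so the same limit applies. MRPS26 was also among the members with less of their body covered in DOX. MRPL36, MRPL47 and MRPS10 completed the 5 lowest, at -0.24 ± 0.26, -0.22 ± 0.17 and -0.16 ± 0.23. Over whole bodies the log2 changes were -1.01 ± 0.72 for MRPS26 and -0.57 ± 0.22 for MRPS21. They were -0.29 ± 0.74 for MRPL36, -0.0006 ± 0.24 for MRPL47 and -0.09 ± 0.26 for MRPS10. MRPS21 had gained a promoter H3K27ac island in DOX while its H3K36me3 value was lower. The gain could not be tested, since control had no island there, and the H3K36me3 difference was not called.

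**Figure D5:**
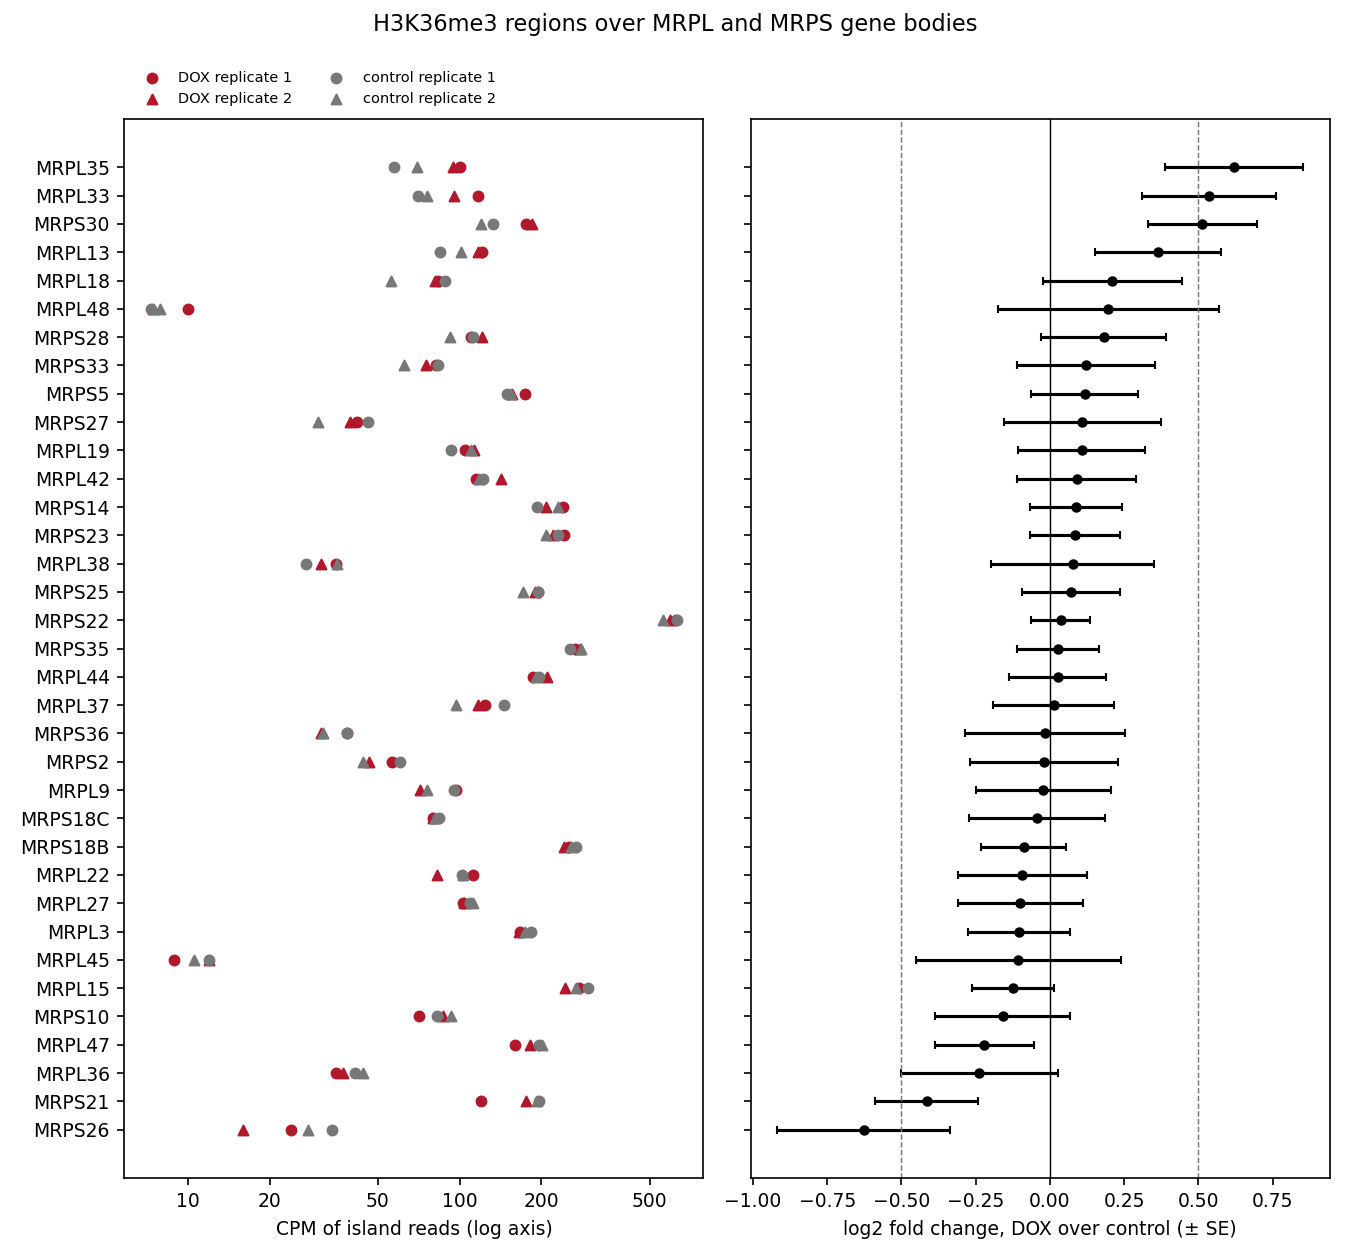
H3K36me3 in the 35 tested regions over member gene bodies, 1 region per gene. Left, CPM of island reads per library on a log axis for DOX (red) and control (grey) replicates. Right, log2 fold change of DOX over control with its SE, from -0.63 at MRPS26 to 0.62 at MRPL35, with dashed lines at the call limit of 0.5 in either direction. MRPS26, MRPS30, MRPL33 and MRPL35 lie beyond a dashed line, and none had an adjusted p below 0.05.

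Over whole gene bodies, with an island in every library as the only condition, 61 members were tested among 8599 genes, of which 69 (0.802%) were called and 0 were members, with an unadjusted p below 0.05 at 2 members and 1030 genes. MRPL16 had the lowest adjusted p of a member, 0.154 by edgeR. It had 20 and 9 H3K36me3 reads in DOX, against 56 and 49 in control, a log2 change of -2.32 ± 0.70. Its islands covered less of the body in DOX, as given above, and per covered base its log2 change was 0.06. Most members were below 0 per covered base, down to -0.62 at MRPL36, so the lower value of MRPL16 was not found on that scale.

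By class of ribosomal protein, median log2 changes of H3K27ac were -0.04 for the 6 tested large subunit genes with bacterial homologues, -0.05 for the 9 found only in mitochondria, -0.23 for the 6 small subunit genes with bacterial homologues and -0.07 for the 2 found only in mitochondria. For H3K36me3 the medians were -0.06, 0.08, -0.02 and 0.05 in the same order over 12, 7, 7 and 8 genes. No class had a called region. In the small subunit class with bacterial homologues H3K27ac was called at all 16 promoters in DOX, against 12 in control, and in the small subunit class found only in mitochondria at 9 of 10, against 5. In the large subunit it was called at 27 of 30 promoters with bacterial homologues in DOX, against 23 in control, and at 21 of 21 found only in mitochondria, against 20. Over all promoters the shares were 51.3% in DOX and 38.3% in control.

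Other genes of mitochondrial translation were read in the same way. Of 17 mitochondrial translation factors, such as the elongation factor TUFM, 17 carried H3K27ac in NCI-H661, and 16 carried it in DOX, against 12 in control. Of 21 ribosome assembly factors 21 carried it in NCI-H661, and 20 in DOX, against 18 in control. Of 20 mitochondrial aminoacyl-tRNA synthetases 19 carried it in NCI-H661, and 20 in DOX, against 14 in control. Over all promoters H3K27ac was called at 58.1% in NCI-H661 and at 51.3% in DOX, against 38.3% in control, so the DOX count was above that in control in these lists and in all genes. No H3K27ac region of these 3 lists was called, and none of their 12, 12 and 10 tested H3K36me3 regions was called. The one called H3K36me3 region in the wider lists was that of SPG7, with a log2 change of 0.53 ± 0.09 and an adjusted p of 0.000133 by edgeR. SPG7 is a protease subunit of the inner mitochondrial membrane that matures MRPL32 in yeast and mouse. Its region was 1 of 10 tested in the list of mitochondrial chaperones and proteases. Over all H3K36me3 regions 15 of 7146 (0.21%) were called, and DESeq2 called none, so the SPG7 call depends on the method.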

How the data were processed

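ChIP-seq was profiled in NCI-H1299 and NCI-H661 cells (38 ChIP and 4 input samples, 44 deposited lists). The authors trimmed single-end reads with Trim Galore 0.6.6, aligned them to hg38 with BWA 0.7.13 and marked duplicates with Picard 2.6.0. In the deposited island lists the counts are the reads of ChIP and input per island as called by EPIC2 per replicate, without normalization. The same deposited lists give the p-value and FDR of each island against input, its log2 fold over input scaled by library size, and a score that is 100 times that log2 value. In the 6 deposited narrow peak lists (MACS2) the authors give the fold enrichment of the summit over background, −log10 of p and q, and a score derived from q. All lists hold enriched regions only, so a missing island gives no read count.

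Islands with an FDR of at most 0.05 and a log2 fold of at least 1 were kept. A promoter reached 1500 bp to each side of a protein-coding gene's canonical start (GENCODE release 44, hg38) and bodies ran from that start to the gene end. For H3K27ac and H3K36me3 the islands of the 4 NCI-H1299 libraries were joined into regions, and regions covered over at least 50% in every library were fitted with edgeR 4.0.16 (R 4.3.3, TMM, quasi-likelihood test, replicate number as a block, Benjamini-Hochberg over all regions). The block was kept because the study describes complete batches, and deviations of same-numbered libraries correlated at 0.26 for H3K27ac and 0.07 for H3K36me3. On simulated data for these comparisons, changes of 1 on the log2 scale were recovered at 88% of changed H3K27ac and 86% of changed H3K36me3 regions. The changes were placed only in regions with higher mean reads, and counts were drawn without a replicate effect or the island filter. These shares thus do not cover regions with few reads, such as MRPL45 for H3K27ac and MRPL48 for H3K36me3. Counts of promoter calls carry no test. DESeq2 1.42.0, other scalings, widths and fold limits, and each replicate left out were tried as alternatives.

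Members and lists were chosen with earlier results of these data known. Genes named in each comparison were the 5 highest and 5 lowest log2 changes, the 10 DPPA2/4 peaks ranked highest by their lowest percentile of fold and the 5 bodies with the most H3K36me3, and others were named after their values were seen. Promoter sequences are from RefSeq (GRCh38.p14).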

Additional observations from a re-analysis of the deposited data

How the results depend on the processing

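No member region was called for either mark under any fit tried. The member median of H3K27ac relative to all regions was -0.08, and it was -0.13 with no coverage minimum, -0.058 with at least 20 reads, -0.056 within 500 bp, -0.13 over gene windows, and -0.16 to 0.057 with 1 library left out. For H3K36me3 it was 0.03, and it was -0.0086 with no coverage minimum, -0.023 per covered length, -0.0054 at a log2 fold above 2, 0 over gene windows, and -0.031 to 0.059 with 1 library left out. Without the replicate block the medians were -0.08 and 0.03, with 0 members called, and over all H3K36me3 regions 3 were called in place of 15. Over all regions tested, H3K27ac calls were 0 except for 8 with total island reads (5 members with an unadjusted p below 0.05), 12 with no coverage minimum (2 such members) and 29 without DOX replicate 2. H3K36me3 calls were 30 with total island reads, 183 of 23356 with no coverage minimum, 8 with library sizes from the deposited folds, 2 at a log2 fold above 2, 1 per covered length, 0 with DESeq2, and 0 to 57 with 1 library left out. The cause was not tested for any of these shifts.

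Single members turned direction relative to all regions as follows. For H3K27ac with no coverage minimum, MRPL32 was at -0.11, MRPS28 at -0.073, MRPL51 at -0.060 and MRPS24 at -0.016. Per covered length, MRPS18C was at 0.17, MRPL9 at 0.11, MRPL32 at -0.31, MRPS28 at -0.024, MRPL51 at -0.23 and MRPS24 at -0.16. Over gene windows, MRPL45 was at 0.081, MRPS28 at -0.064 and MRPL51 at -0.16. With 1 library left out the ranges were -0.53 to 0.98 for MRPL24, -0.62 to 0.049 for MRPS14, -0.10 to 0.24 for MRPL32 and -0.17 to 0.33 for MRPL51. For H3K36me3, MRPL13 was at -0.62 with no coverage minimum, -0.20 at a log2 fold above 2 and -0.18 over gene windows, and per covered length MRPL47 was at 0.11 and MRPL18 at -0.032. With 1 library left out the ranges were -0.27 to 0.28 for MRPL47, -0.29 to 0.0089 for MRPS10, -0.088 to 0.56 for MRPL18 and -0.12 to 0.51 for MRPL13. None of these genes was called in any fit.

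In NCI-H661 a log2 fold above 2 left 1 member with H2AK119ub (1.28%, against 12.8% of all promoters), 16 with H3K4me1 (20.5%, against 15.1%) and 7 with H3K36me3 (8.97%, against 2.86%). Within 500 bp 2 members had H3K4me1 (2.56%, against 9.62%) and 0 had H3K36me3 (0%, against 1.27%). Counting any annotated start gave 29 for H3K36me3 (37.2%, against 20.2%). A single replicate gave 6 to 11 members for H2AK119ub (27.1% to 41.3% of all promoters), 34 to 50 for H3K4me1 (39.7% to 43.2%) and 22 to 43 for H3K36me3 (8.75% to 19.8%). It gave 0 to 3 members for H3K9me3 (6.19% to 9.21%) and 2 to 9 for H3K36me2 (9.80% to 20.3%). DPPA2/4 binding was at 10 members with 50% of each peak shared and at 35 with EPIC2 islands. EPIC2 islands of KDM2A and SUZ12, an alternative chosen after seeing the data, gave 56 and 2 members, against 50.5% and 23.4% of all promoters. H3K27ac gained in DOX was counted at 5 members within 500 bp (6.41%, against 5.74% of all promoters) and at 12 with a log2 fold above 2 (15.4%, against 11.6%). With 1 library left out it was counted at 3 to 12 members, against 5.44% to 11.3% of all promoters. Depth is limited to island reads, with 2 libraries per condition, and regions without an island in every library could not be compared.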

Other observations

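Pseudogenes of the family were read for H3K27ac and H3K36me3. Of 79 pseudogenes named after a mitochondrial ribosomal protein gene, H3K27ac was called at 2 in DOX (MRPL42P1 and MRPS31P5), against 0 in control, and at 4 in NCI-H661 (MRPL36P1, MRPL42P1, MRPS31P4 and MRPS31P5). MRPS31P5 also had an H3K27ac island in control replicate 1. H3K36me3 was called within 1500 bp of the start at 3 in DOX (MRPL37P1, MRPL53P1 and MRPS31P5), against 2 in control (MRPS31P4 and MRPS31P5), and at the same 2 in NCI-H661. Over protein-coding promoters H3K27ac was called at 51.3% in DOX, 38.3% in control and 58.1% in NCI-H661, and H3K36me3 at 9.52%, 7.37% and 7.17%. A share over all pseudogenes is not given here. The pseudogene values are uncertain, since near-identical copies share reads.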
